A study of Mus musculus with 16 samples.

Results

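The SMYD lysine methyltransferases and the chaperones of muscle myosin were followed through 7 genes, Smyd1, Smyd2, Smyd3, Smyd5, Unc45b, Hsp90aa1 and Hsp90ab1, taken by name from a table of 23440 genes. All 7 were among the 10171 genes with at least 1 RPKM (a read number divided by the length of the gene and by the reads of the library) in at least 4 of 16 libraries. Smyd2 was selected because it fell with training in wild-type mice, so its wild-type values are a description without a test. The remaining members were taken for their place in the same family or chaperone system.

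The libraries came from gastrocnemius, a calf muscle, of 20-week-old male C57Bl6/J mice. Wild-type mice (WT) and mice lacking the cytokine gene Il13 (Il13-/-, here KO) were either left untrained or ran daily on a treadmill for 5 weeks, with 4 mice in each of the 4 groups. The 16 mice carry separate identifiers. The design asks how endurance training changes muscle mRNA and whether Il13 is needed for that change. How the knockout was made, and whether WT and KO mice were littermates, is not given in the sources used here. Whole muscle was used, so fewer cells of a type and less RNA per cell cannot be told apart.

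Library totals solved from the RPKM steps ran from 16307025 to 20074677 reads. Il13 itself had 0 reads in each of the 8 WT libraries and 0 to 2 reads in the KO libraries, too few to check which mice lack the gene. Markers of skeletal myofibres (8 of 8 measured, summed level 77575 to 102529 RPKM) were present in every library. KO untrained 1 stood apart in some heat shock genes, and KO untrained 3 and KO trained 3 in slow fibre markers. For Smyd2, Smyd3, Hsp90aa1 and Hsp90ab1 the KO training contrast is also given without the library or libraries concerned. Correlations are over all 16 libraries unless stated.

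SMYD proteins carry a SET domain, which transfers methyl groups to lysine, split by a MYND zinc finger. SMYD1 is found mainly in heart and skeletal muscle and is needed for myofibril assembly. SMYD2 methylates HSP90 in the cytoplasm, and the methylated complex binds titin at the sarcomere. UNC45B, a co-chaperone of muscle, works with HSP90 to fold the myosin head.

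The RefSeq promoter table (GRCm38.p6, the assembly of mm10) matched 4 of the 7 members. The 120 bases before the start site are shown for Smyd1 and Unc45b, whose levels varied least between libraries, and for Smyd2, chosen for its fall. Capitals mark CANNTATAG and the E-box CANNTG, with N any base and both strands searched.
Smyd1 (chr6:71262282-71262401, minus strand): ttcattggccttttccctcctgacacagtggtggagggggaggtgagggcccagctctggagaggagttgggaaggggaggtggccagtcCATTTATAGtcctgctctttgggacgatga
Unc45b (chr11:82911133-82911252, plus strand): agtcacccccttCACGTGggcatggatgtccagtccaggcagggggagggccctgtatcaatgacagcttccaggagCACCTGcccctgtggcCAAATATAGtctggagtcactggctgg
Smyd2 (chr1:189922292-189922411, minus strand): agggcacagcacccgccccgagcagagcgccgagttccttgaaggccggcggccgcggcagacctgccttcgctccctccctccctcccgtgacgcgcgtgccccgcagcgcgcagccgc
CANNTATAG was picked after these sequences had been seen. It lies at similar places in Smyd1 and Unc45b, 30 and 27 bases before the start, and 1.55% of 32817 promoter windows of 250 bases hold it. Unc45b also holds 2 E-boxes, CACGTG and CACCTG, a motif found in 66.2% of windows. Neither motif is in the 250 bases before Smyd2 or Smyd5. In those 250 bases the G and C content of Smyd2 was 78.8%, with 34 CG pairs, against 51.6% and 2 pairs for Smyd1 and 56.8% and 4 pairs for Unc45b. The medians over all windows were 52.4% and 6 pairs. The GC box GGGCGG, on either strand, occurred 3 times before Smyd2 and 2 times before Smyd5, and 32.7% of windows hold it. The heat shock half-site pair GAANNTTC was in none of the 4 members and in 6.69% of windows. A match describes letters only, and none was tested as a binding site.

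Levels per kilobase spanned a wide range. Hsp90ab1, the constitutive cytosolic HSP90, averaged 442.8 RPKM over the 16 libraries (rank 76 of 10171). Smyd1 averaged 158.7 RPKM (rank 297), Smyd2 118.5 RPKM (rank 386) and Unc45b 86.0 RPKM (rank 503). Hsp90aa1, the stress-inducible HSP90, followed at 15.7 RPKM, Smyd5 at 3.45 RPKM and Smyd3 at 1.25 RPKM. Library ranges of neighbours in this order overlapped for Smyd1 with Smyd2 and for Smyd2 with Unc45b, and were apart for the other members. The paralogs Smyd4 (1.44 RPKM) and Unc45a (3.13 RPKM), the widely expressed form of UNC45, were low too. Unc45b stood 26.2 to 30.4 times above Unc45a in the 4 group means of their ratio.

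**Figure D1:**
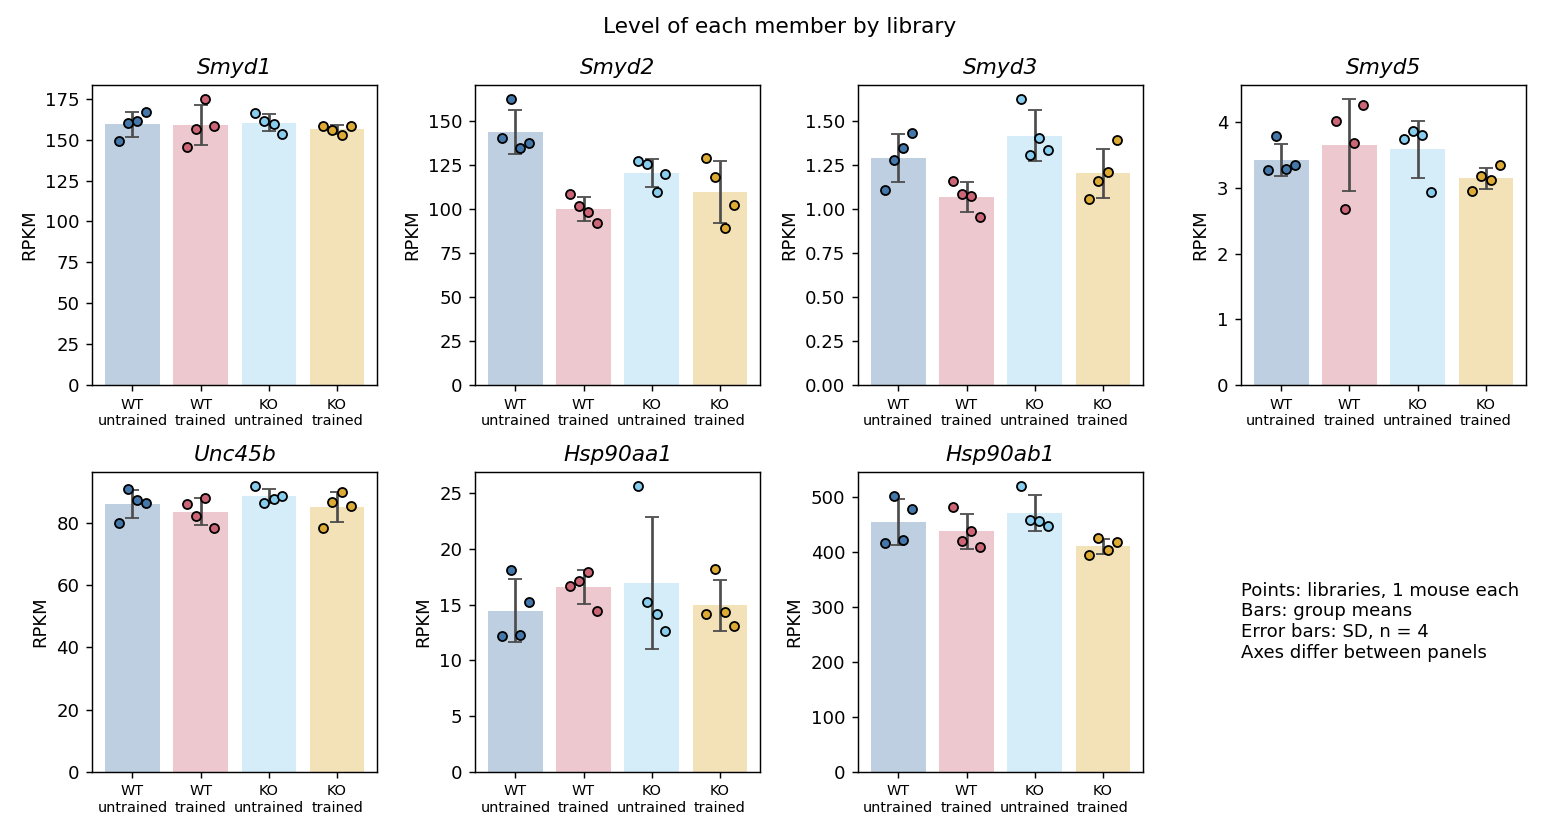
RPKM of each member (vertical axes, which differ between panels) in the 4 groups; points are libraries of 1 mouse each, bars are group means and error bars are SD (n = 4). Smyd2 shows separate WT groups, at 135 to 162 RPKM untrained and 92.2 to 109 RPKM trained, while Smyd1 and Unc45b keep narrow ranges in all groups.

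Smyd2 lies on the minus strand of chromosome 1 (mm10, 189880492 to 189922288). In WT untrained muscle it measured 140.5, 162.4, 134.7 and 137.5 RPKM, and in WT trained muscle 108.7, 101.4, 98.0 and 92.2 RPKM. Every trained WT library was below every untrained one, and these groups did not overlap for 6.37% of all genes tested. The means were 143.8 ± 12.6 and 100.1 ± 6.90 RPKM (SD, n = 4), a log2 fold change of -0.52 (SE 0.10) or 0.697-fold. This is the contrast that chose the gene, so no test is given.

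In KO untrained muscle Smyd2 measured 127.2, 125.5, 109.4 and 119.7 RPKM, and in KO trained muscle 129.2, 118.004, 89.2 and 102.2 RPKM. The KO groups overlapped, with 1 trained library above and 2 below all untrained ones. The KO means were 120.5 ± 8.05 and 109.7 ± 17.5 RPKM (SD, n = 4). The training contrast in KO, whose estimate used no library of the choice, was -0.15 on the log2 scale (SE 0.10, limma adjusted p = 0.489). Its 95% interval ran from -0.35 to 0.06. The limma fit estimates the spread over all 16 libraries, so this SE, p and interval also draw on WT libraries. Fitted on the KO groups alone, the contrast had an SE of 0.11 (limma adjusted p = 0.532). The two-sided exact permutation p, from KO libraries only, was 0.343.

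The KO response minus the WT response of Smyd2 was 0.37 (SE 0.14), and it contains the contrast that chose the gene. KO untrained libraries all lay below WT untrained ones, a log2 difference of -0.25 (SE 0.10). These groups did not overlap for 3.95% of all genes tested. After training the genotypes overlapped, at 0.12 (SE 0.10). Both genotype contrasts use WT libraries on which Smyd2 was chosen, so they are descriptions and no test is given. Set against Smyd1 in the same library, the Smyd2 level went from 0.904 ± 0.090 to 0.634 ± 0.083 with training in WT and from 0.752 ± 0.045 to 0.701 ± 0.104 in KO (SD, n = 4). The ratio, which does not depend on the library total, gave the same order of groups as the level itself.

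Slow or oxidative fibre markers (9 of 9 measured: Myh7, Myl2, Myl3, Tnnt1, Tnni1, Tnnc1, Tpm3, Atp2a2 and Myh2) were highest in WT trained libraries and the KO libraries numbered 3. Smyd2 was at 89.2 to 109 RPKM in these libraries. Among them WT trained 1 had the highest marker sum (1637 RPKM), with the highest Smyd2 of its group (108.7 RPKM). In WT 9 of 9 markers were above 0 with training, and 1, Myh2, was called at a limma adjusted p under 0.05. In KO 9 of 9 were below 0 and 0 were called. Their summed level was 664 to 925 RPKM in WT untrained and 1239 to 1637 RPKM in WT trained libraries, 779 to 1369 RPKM in KO untrained and 631 to 1403 RPKM in KO trained ones. None of them was at 0 in all libraries. KO untrained 3 (1369 RPKM) and KO trained 3 (1403 RPKM) were inside the WT trained range of this sum, and each had the lowest Smyd2 of its group, 109 and 89.2 RPKM. KO trained 4 went the other way, with the lowest marker sum of all libraries (631 RPKM) and a Smyd2 of 102.2 RPKM. Apart from those numbered 3, the 6 KO libraries had sums of 631 to 985 RPKM and Smyd2 at 102.2 to 129.2 RPKM, below the 135 to 162 RPKM of WT untrained libraries at sums of 664 to 925 RPKM. Without both KO libraries numbered 3, a choice made after seeing the data, the KO training contrast of Smyd2 was -0.10 (SE 0.09, limma adjusted p = 0.776). Without KO trained 3 alone it was -0.05 (SE 0.09, limma adjusted p = 0.822), and without KO untrained 3 alone -0.19 (SE 0.10, limma adjusted p = 0.563). Without KO trained 1, the highest trained library, it was -0.23 (SE 0.09, limma adjusted p = 0.374), the largest fall among the 8 values that leave out 1 KO library. Tendon markers (9 of 10 tested, all 10 in the sums) moved with these groups as well. Their sums were 124 to 159 RPKM in WT untrained and 211 to 274 RPKM in WT trained libraries. In KO the sums were 150 to 264 RPKM untrained and 100 to 235 RPKM trained. By gene 8 of the 9 tested were above 0 with training in WT and 1 below. In KO 9 of 9 were below 0, and 0 were called in either genotype. Skeletal myofibre markers (8 of 8 tested, mostly of fast fibres) were lower as a sum where Smyd2 was lower in WT. It was 92863 to 102529 RPKM untrained and 77575 to 89172 RPKM trained. In KO these sums were 87220 to 90326 RPKM and 78694 to 85926 RPKM, so the groups did not overlap in either genotype. By gene 7 of 8 were below 0 in each genotype and 0 were called. The marker above 0 was Myh1, at 0.75 in WT (limma adjusted p = 0.0949) and 0.25 in KO (limma adjusted p = 0.552). An unadjusted limma p under 0.05 was found for 8 markers in WT, Myh1 with its rise among them, and for 2 in KO. The part of fibre type or tendon in the Smyd2 values was not tested.

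**Figure D2:**
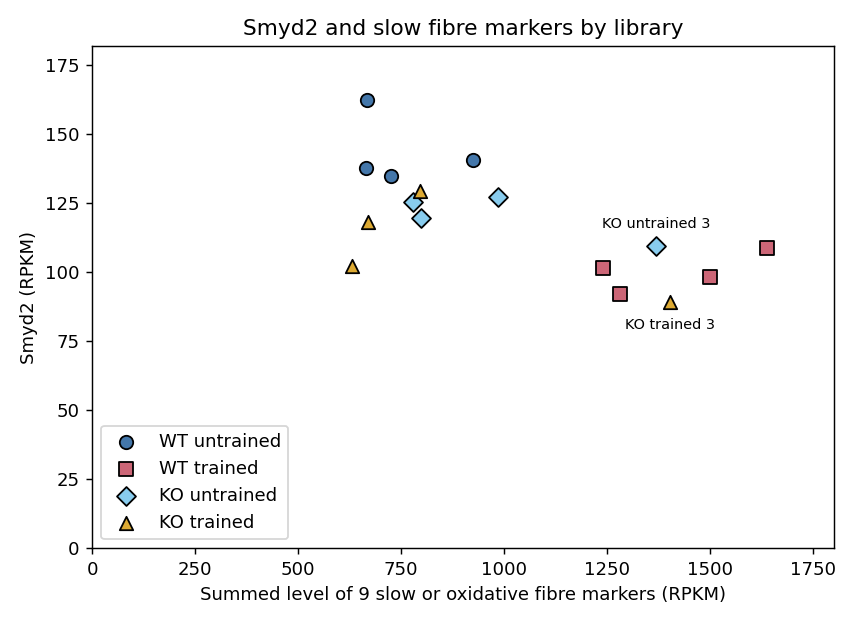
Smyd2 (vertical axis, RPKM) against the summed level of 9 slow or oxidative fibre markers (horizontal axis, RPKM); each point is 1 library and its symbol shows the group. The 4 WT trained libraries and the KO libraries numbered 3 lie to the right, at sums of 1239 to 1637 RPKM and at 109 RPKM of Smyd2 or less.

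Exons of Smyd2 share 814 bases with Gm37422 on the other strand, and 31.8% of the runs of 50 bases in its longest coding transcript occur in a transcript of that gene. Whether the counting used strand is not given in the sources used here, so the level of Smyd2 is uncertain to that extent. Recovered reads for Smyd2 numbered 2639 to 4552 per library.

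The tested genes most like Smyd2 over the 16 libraries, by Pearson r of log2(RPKM + 0.1), were Ccnk (0.94), Nek6 (0.91), Csda (0.91), Cacng1 (0.89) and Aamdc (0.87). Ccnk encodes cyclin K, Nek6 a kinase of the NIMA family, and Cacng1 a subunit of the muscle calcium channel. Ccnk averaged 52.0 RPKM untrained and 40.8 RPKM trained in WT, and 44.7 and 42.5 RPKM in KO, which is the group order of Smyd2. After group means were removed, r was 0.86 for Ccnk and 0.92 for Nek6. The lowest r belonged to Mut (-0.90), Zfhx4 (-0.89) and Sspn (-0.88), which encode methylmalonyl-CoA mutase, a zinc finger homeobox protein and sarcospan. The libraries share their groups, so these values describe a pattern and carry no p. Ccnk was picked for its likeness over these same libraries, so its shared group order is part of that choice.

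Smyd1, the muscle member of the family, lies on chromosome 6 (mm10, 71213940 to 71262281, minus strand). It measured 149.1, 160.4, 161.2 and 166.9 RPKM in WT untrained and 145.7, 156.7, 174.7 and 158.6 RPKM in WT trained muscle. In KO it measured 166.2, 161.5, 159.6 and 153.6 RPKM untrained and 158.5, 155.9, 152.5 and 158.4 RPKM trained. All 4 groups overlapped, and the highest library was 1.20 times the lowest. The training contrast was -0.01 in WT (SE 0.06, limma adjusted p = 0.980) and -0.04 in KO (SE 0.06, limma adjusted p = 0.798). The 95% intervals ran from 0.917-fold to 1.08-fold in WT and from 0.898-fold to 1.06-fold in KO.

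Smyd3, a family member with cytoplasmic and nuclear substrates (chromosome 1, 178955039 to 179518003, minus strand), was at the edge of detection, with 64 to 110 reads per library. It measured 1.11, 1.28, 1.35 and 1.43 RPKM in WT untrained and 1.16, 1.09, 1.07 and 0.954 RPKM in WT trained muscle. In KO it measured 1.63, 1.31, 1.40 and 1.33 RPKM untrained and 1.06, 1.16, 1.21 and 1.39 RPKM trained. In each genotype 3 of 4 trained libraries were below all untrained ones. The log2 fold change was -0.25 in WT (SE 0.12, limma adjusted p = 0.409) and -0.22 in KO (SE 0.12, limma adjusted p = 0.416), with exact permutation p of 0.0571 and 0.0857. Without KO untrained 1, its highest library, the KO value was -0.16 (SE 0.12, limma adjusted p = 0.677). Averaged over genotypes the Smyd3 contrast was -0.24 (SE 0.08, limma adjusted p = 0.158). With a weight per library the averaged contrast passed the threshold (-0.26, limma adjusted p = 0.0477). The 3 genes most like Smyd3 were Gdf10 (r = 0.87), a secreted growth factor, and the class II antigen presentation genes H2-Aa (0.85) and H2-Ab1 (0.85).

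Smyd5 (chromosome 6, 85431976 to 85446429, plus strand), had 111 to 189 reads per library. In WT it measured 3.28, 3.79, 3.28 and 3.34 RPKM untrained and 4.01, 2.67, 3.68 and 4.25 RPKM trained. In KO it measured 3.74, 3.87, 3.80 and 2.94 RPKM untrained and 2.95, 3.18, 3.11 and 3.34 RPKM trained. The groups overlapped in both genotypes. The training contrast was 0.07 in WT (SE 0.12, limma adjusted p = 0.863) and -0.18 in KO (SE 0.12, limma adjusted p = 0.506). Smyd4 had training contrasts of 0.03 in WT and -0.02 in KO, with limma adjusted p of 0.950 and 0.965.

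Unc45b (chromosome 11, 82911253 to 82943406, plus strand) had the narrowest spread of the members, with a highest library 1.17 times the lowest. It measured 80.1, 91.0, 87.5 and 86.4 RPKM in WT untrained and 86.1, 82.3, 88.1 and 78.5 RPKM in WT trained muscle. In KO it measured 92.0, 86.6, 87.7 and 88.8 RPKM untrained and 78.4, 86.8, 90.0 and 85.5 RPKM trained. No pair of groups was separate. The training contrast was -0.04 in WT (SE 0.06, 95% interval 0.893-fold to 1.06-fold, limma adjusted p = 0.827) and -0.06 in KO (SE 0.06, 0.882-fold to 1.04-fold, limma adjusted p = 0.631). Under quantile normalization the WT value was 0.02, so no direction is given. Its exons share 255 bases with Unc45bos and 151 bases with Slfn5os on the other strand.

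Hsp90ab1 (chromosome 17, 45567778 to 45573261, minus strand) was the member with separate groups in KO. It measured 520, 458, 456 and 447 RPKM in KO untrained and 394, 426, 404 and 417 RPKM in KO trained muscle, so that every trained library was below every untrained one. The means were 470.2 ± 33.2 and 410.1 ± 13.9 RPKM (SD, n = 4). The log2 fold change was -0.20 (SE 0.07, 0.873-fold) and did not pass the threshold over all genes (limma adjusted p = 0.268). The exact permutation p was 0.0286, unadjusted over members and the smallest that 4 against 4 can give. Smooth muscle and pericyte markers (6 of 6 tested: Acta2, Myh11, Tagln, Cnn1, Rgs5 and Des) separated the same KO groups. Their sums were 1328 to 1462 RPKM untrained and 1186 to 1289 RPKM trained. By gene 5 of 6 were below 0 in KO, with a median of -0.43, and 0 were called, with 5 at an unadjusted p under 0.05. None was at 0 in all libraries. The skeletal myofibre sum given above was separate in KO as well. Whole muscle was measured, so the smooth muscle and pericyte sum may include RNA of other cells. The part of either marker set in the Hsp90ab1 values was not tested.

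In WT muscle Hsp90ab1 measured 416, 501, 421 and 478 RPKM untrained and 482, 420, 437 and 409 RPKM trained, and the groups overlapped. The WT contrast was -0.05 (SE 0.07, limma adjusted p = 0.828). The KO response minus the WT response was -0.14 (SE 0.10, 95% interval -0.36 to 0.07, limma adjusted p = 0.727), so a difference between genotypes was not shown. Without KO untrained 1, the highest library, the KO contrast was -0.15 (SE 0.07, limma adjusted p = 0.525). Averaged over genotypes Hsp90ab1 had a contrast of -0.12 (SE 0.05, limma adjusted p = 0.215), which passed with a weight per library (-0.14, limma adjusted p = 0.0490).

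Hsp90aa1 (chromosome 12, 110691036 to 110696395, minus strand) varied most between mice, with a highest library 2.11 times the lowest. It measured 12.2, 18.1, 12.3 and 15.3 RPKM in WT untrained and 16.7, 17.1, 18.0 and 14.4 RPKM in WT trained muscle. In KO it measured 25.7, 15.3, 14.2 and 12.6 RPKM untrained and 14.2, 18.2, 14.3 and 13.1 RPKM trained. All groups overlapped, and KO untrained 1 lay above every other library. The contrast was 0.21 in WT (SE 0.18, limma adjusted p = 0.708) and -0.13 in KO (SE 0.18, limma adjusted p = 0.756). Without KO untrained 1 the KO value was 0.08 (SE 0.14, limma adjusted p = 0.848). Of the runs of 50 bases in its longest coding transcript 58.5% occur in transcripts of 4 other annotated genes, most in Gm12346, so reads may have been split or dropped. The share was 4.49% for Hsp90ab1.

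KO untrained 1 was also the highest of the 16 libraries for Hsp90ab1 (520 RPKM), Unc45b (92.0 RPKM) and Smyd3 (1.63 RPKM). The heat-inducible HSP70 genes Hspa1a and Hspa1b, chosen after their values were seen, measured 18.0 and 12.2 RPKM there, against at most 7.85 and 4.85 RPKM in any other library. These genes are near-identical copies, so their separate levels are uncertain. The heat shock genes Dnajb1 and Hsph1, also chosen after their values were seen, did not have their highest level there. Dnajb1 measured 4.05 RPKM there and 4.68 RPKM in WT untrained 2, and Hsph1 28.4 RPKM there and 31.4 RPKM in WT trained 3. The HSP90 co-chaperone gene Stip1 did have its highest level in KO untrained 1, at 47.2 RPKM against 44.1 RPKM in WT trained 3. The genes most like Hsp90aa1 were Map1b (r = 0.92), Ckap4 (0.90) and Serpinh1 (0.90), a collagen chaperone. Serpinh1 measured 33.2 RPKM in KO untrained 1 and 12.5 to 22.8 RPKM elsewhere. The gene most like Hsp90ab1 was Hspb1 (r = 0.92), a small heat shock protein, at 203 RPKM in KO untrained 1 and 79.9 to 172 RPKM elsewhere. Why this library stood apart was not tested.

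**Figure D3:**
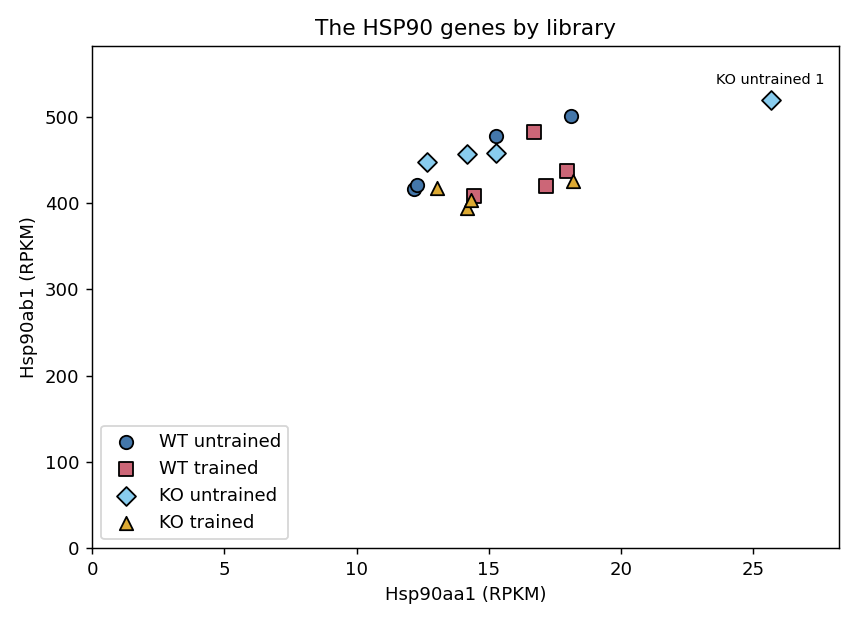
Hsp90ab1 (vertical axis, RPKM) against Hsp90aa1 (horizontal axis, RPKM); each point is 1 library and its symbol shows the group. KO untrained 1 lies at 25.7 RPKM of Hsp90aa1 and 520 RPKM of Hsp90ab1, the highest of both, and the 4 KO trained libraries lie below the other KO libraries in Hsp90ab1.

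Over the 16 libraries the 15 pairs of members without Smyd2 were compared as a description, with no p, since libraries share their groups. The 4 pairs with the highest Pearson r of log2(RPKM + 0.1) are given. For Smyd3 with Unc45b r was 0.71 (Spearman rho 0.54), and 0.65 after group means were removed. For Unc45b with Hsp90ab1 r was 0.65 (rho 0.57), and 0.64 with group means removed. KO untrained 1 was the highest library for each of these genes. For Smyd3 with Hsp90ab1 r was 0.63 (rho 0.57), and 0.64 with group means removed. For the HSP90 genes r was 0.63 (rho 0.52), and 0.78 with group means removed. Without the 2 libraries farthest from the median of the first gene, r was lower in each pair, at 0.53, 0.52, 0.42 and 0.50 in the same order. For Unc45b with Hsp90ab1 the libraries left out did not include KO untrained 1.

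**Figure D4:**
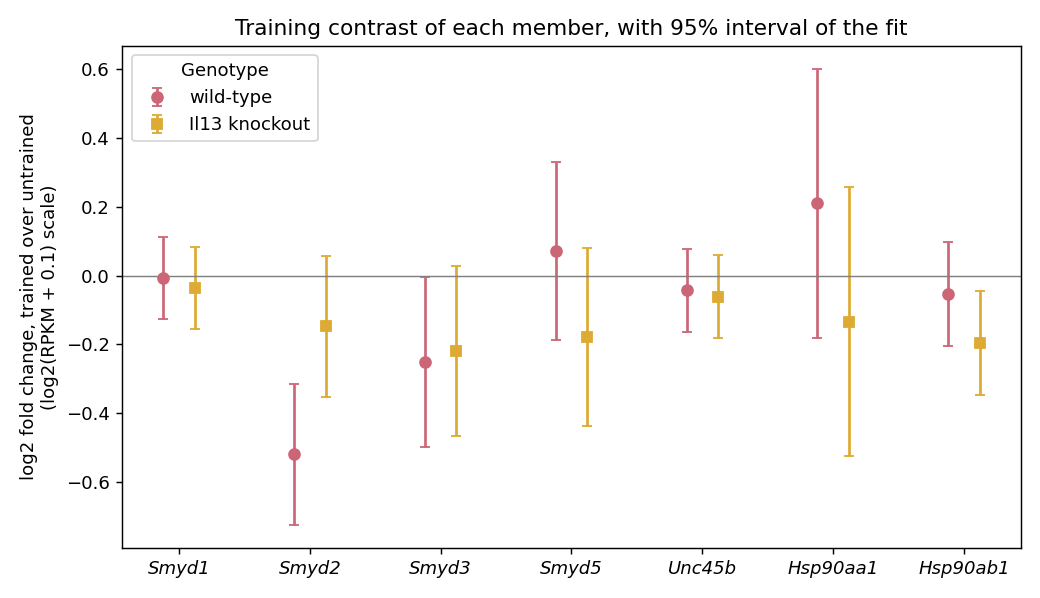
Log2 fold change of trained over untrained muscle (vertical axis, log2(RPKM + 0.1) scale) for each member in WT and KO; points are the fitted values and bars their 95% intervals. In KO all intervals reach 0 except that of Hsp90ab1 (-0.35 to -0.04). In WT the interval of Smyd3 (-0.50 to -0.0039) lies just below 0, and Smyd2, chosen on this contrast, lies at -0.52.

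Counted over the members, 1 of 7 passed an adjusted p of 0.05 (called, below) for training in WT, beside 0.187% of all genes tested. That member was Smyd2, which the contrast chose, so nothing is read from the count. Among the other members Smyd3 had an unadjusted limma p under 0.05 in WT, as did 1202 of all genes. For training in KO 0 of 7 were called, beside 0% of all genes by limma, of which 1398 had an unadjusted p under 0.05, as did 1 member, Hsp90ab1. Over all genes the KO count was also 0 by voom on the recovered reads, and it was 97 with a weight per library. Groups did not overlap for 1 of 7 members in KO, Hsp90ab1, beside 9.43% of all genes. All 7 members had values below 0 in KO, with a median of -0.15, where 64.9% of all genes were below 0 with a median of -0.06. Under quantile normalization and under median-of-ratios scaling 6 of 7 were below 0, with Smyd1 above it. The KO and WT estimates share no libraries, but the limma fit estimates their spread together.

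For the difference of the training responses 0 of 7 members were called, beside 0% of all genes by limma (854 with an unadjusted p under 0.05, and 0 called by voom). For KO against WT 0 of 7 were called in untrained muscle, beside 0.0492% of all genes, and 0 of 7 in trained muscle, beside 0.0885%. For genotype averaged over training 0 of 7 were called, beside 0.0787%. For training averaged over genotypes 0 of the 6 members other than Smyd2 were called, beside 0.777%. Smyd2 passed there too, but that contrast contains the WT contrast that chose it, so nothing is read from its call. In untrained muscle the KO contrasts of the members other than Smyd2 ran from 0.01 for Smyd1 to 0.19 for Hsp90aa1, whose value was -0.03 without KO untrained 1. In trained muscle they ran from -0.19 for Smyd5 to 0.16 for Smyd3. Without any single WT library other than WT trained 1, Smyd2 no longer passed in WT, with values of -0.55 to -0.46. In the fit with a weight per library, WT trained 1 had the lowest weight of the 16 libraries (0.309).

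Genes that work with the members were followed as lists. Of 27 HSP90 paralogs and co-chaperones, 0 were called in either training contrast. Their median was 0.06 in WT (17 above 0) and -0.04 in KO (12 above 0), beside 0.01 and -0.06 over all genes. Cdc37l1, a relative of the kinase co-chaperone CDC37, had a WT value of 0.30 (limma adjusted p = 0.0999). For Itgb1bp2, the muscle co-chaperone melusin, the KO training response minus the WT training response was -0.22 (limma adjusted p = 0.526).

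Of 22 HSP70, HSP40 and HSP60 chaperones 0 were called, and 17 were above 0 in WT (median 0.17) against 11 in KO (median -0.0018). Hspa4l, an HSP70 nucleotide exchange factor, had a WT value of 0.60 (limma adjusted p = 0.0897), and the mitochondrial Hspa9 and Hspd1 had 0.21 and 0.24 (limma adjusted p = 0.122 and 0.160). Of the 13 tested genes of the CCT chaperonin and prefoldin, which fold actin and tubulin, 0 were called. Their medians were -0.00023 in WT and 0.02 in KO, and prefoldin subunit Pfdn1 had a WT value of -0.24 (limma adjusted p = 0.0720). The 4 genes listed for heat shock factors, Hsf1, Hsf2, Hsf4 and the factor-binding protein gene Hsbp1, had 0 calls. Their medians were -0.09 in WT and -0.08 in KO.

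Among the clients, 1 of 13 tested thick filament, M-band and titin genes was called in WT and 0 in KO, with medians of 0.33 and -0.09. Myh2, the myosin heavy chain of type IIA fibres, rose in WT by 0.72 on the log2 scale (SE 0.13, limma adjusted p = 0.0365). The M-band gene Myom3 had 0.69 and slow myosin-binding protein C, Mybpc1, 0.64 (limma adjusted p = 0.0799 and 0.0929). Of 15 titin-binding and ubiquitin ligase genes 0 were called, with medians of 0.02 in WT and -0.11 in KO. Cryab, the small heat shock protein alpha B-crystallin, had 0.49 in WT (limma adjusted p = 0.164).

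Of 10 partners and muscle regulators around Smyd1 0 were called, with medians of -0.04 in WT and -0.08 in KO. Naca, whose muscle form binds SMYD1, had -0.32 in KO (limma adjusted p = 0.197), and the transcription factor Mef2d had -0.25 (limma adjusted p = 0.184). Of 3 tested genes tied to SMYD3, 0 were called: myostatin, Mstn, had -0.32 in WT and 0.24 in KO (limma adjusted p = 0.565 and 0.586).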

How the data were processed

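Stranded poly(A) libraries were made from gastrocnemius RNA, per the labels' protocols. The deposited values are RPKM computed by the authors, per the file headers, on mm10, per the submitters' processing notes; the sources used here name no aligner, counter or use of strand. The written design allowed for raw counts; the file held RPKM, so its RPKM test was used. It was limma 3.58.1 (mean-variance trend, robust moderation, statmod 1.5.0, R 4.3.3) on log2(RPKM + 0.1), which understates changes of low genes, with 1 mean per group over 16 libraries, 7 contrasts, two-sided p-values and Benjamini-Hochberg adjustment over 10171 genes (threshold 0.05). The fit was tested on simulated data. Exact permutation tests compared 4 with 4 libraries (SciPy 1.17.1). Correlations over libraries are given without p. Whole reads were recovered from the RPKM steps for 100% of 17402 genes above 0, within 0.01 read. Gene models overlapping members come from GENCODE M21 and promoters from RefSeq.

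The members and gene lists were chosen with earlier results of these data known. Genes named are the 7 members, 2 paralogs, from each list any called gene or up to 4 with the smallest p (a choice among them was made after seeing values), and the genes most alike over the libraries. The search for likeness left out the members and Gm, Rik and LOC genes. Alternatives changed the pseudocount, filter, scaling, libraries, block, weights and test.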

Additional observations from a re-analysis of the deposited data

Results flagged for a closer look

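Of 28 groups of 4 libraries examined, 7 members in 4 groups, 3 had a highest or lowest library whose gap to the next exceeded the 95% critical value of Dixon's test, which chance gives in about 1 in 20 groups. Hsp90ab1 in KO untrained 1 measured 519.6 RPKM, with the other KO untrained libraries at 447 to 458 RPKM. Smyd5 in WT untrained 2 measured 3.79 RPKM, with the others of its group at 3.28 to 3.34 RPKM. Smyd5 in KO untrained 4 measured 2.94 RPKM, with the others of its group at 3.74 to 3.87 RPKM.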

How the results depend on the processing

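The 27 alternative settings left out 1 library each (16) or changed another choice (11), and 0 of 1064 recomputed member values reversed a call. Members called for training in WT went from 1 to 0 with no filter on low values, and ranged from 0 to 1 when 1 library was left out. For training averaged over genotypes 1 became 0 with no filter, 3 with weights per library (Smyd2, Smyd3 and Hsp90ab1), 0 without both KO libraries numbered 3, and 0 to 1 with 1 library left out. The cause was not tested. In both contrasts the 1 is Smyd2, which was chosen on WT libraries they contain, so its call is no independent result. In the other 5 contrasts 0 members were called under every setting run. The genes called for training in WT, 19, ranged from 0 to 272 with 1 library left out and from 3 to 329 otherwise, with 64 by voom on recovered reads. For training in KO the 0 genes became 97 with weights per library, 1 with no filter and 0 to 1 with 1 library left out.

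Replicate numbers name different mice. Same-numbered libraries had a mean correlation of 0.03 (-0.18 to 0.44) between deviations from group means, and 6 of 16 correlated best with their own number. With a replicate block 1 member was called for training in WT and 1 for training averaged over genotypes, as without it, and 31 genes in place of 79 in the latter. The alternative for raw counts was not run, since the file holds RPKM. Reads limit Smyd3 and Smyd5, at 64 to 110 and 111 to 189 per library.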

Other observations

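Other enzymes of lysine methylation were measured beside the SMYD genes. Of 24 tested lysine methyltransferases outside the family 0 were called in either training contrast by limma, with 1 at an unadjusted p under 0.05 in each, and medians of -0.02 in WT and -0.07 in KO. Ehmt1, a histone H3 lysine 9 methyltransferase, had 0.18 in WT (limma adjusted p = 0.323), and Dot1l, the histone H3 lysine 79 methyltransferase, had -0.21 in KO (limma adjusted p = 0.364). Of 17 tested lysine demethylases 0 were called, with medians of -0.02 and -0.01, and Phf8 had 0.22 in WT (limma adjusted p = 0.467). Of 8 tested genes that supply S-adenosylmethionine, the methyl donor, 0 were called in WT or in KO, with medians of -0.10 and 0.03. Mat2b, the regulatory subunit of the synthetase, had 0.15 in WT (limma adjusted p = 0.312) and 0.23 in KO (limma adjusted p = 0.150), and it rose by 0.19 when training was averaged over genotypes (SE 0.04, limma adjusted p = 0.0469). Mat2a, the catalytic subunit, was the tested gene most like Smyd1 over the 16 libraries (Pearson r = 0.77, and 0.82 after group means were removed).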
